A study of Mus musculus with 2 samples.

Results

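The genes described here build and maintain the mitochondrial proteome: the translocases that bring proteins in, the chaperones that fold them, and the peptidases and proteases that process and remove them. The set holds 52 genes listed by the function of their products, and a gene was represented by the array probes whose accession maps to its symbol. All 52 were measured, of 13848 genes measured in all. The arrays compared heart-specific *Bmal1* knockout (*H-Bmal1*-/-) mice, which carried a floxed *Bmal1* gene (allele *Arntl* tm1Weit) and a Cre transgene driven by the αMHC promoter (*Myh6-cre*), active in cardiac muscle cells, with control littermates, which carried the same floxed gene without Cre and which the sample labels call wildtype. All animals were males on a B6 background aged 12 weeks, kept under a light-dark cycle and sampled at ZT 2 (ZT 0 is lights on). RNA of the left ventricle from 6 animals of a genotype was pooled, and each pool was hybridized to 1 single-color Agilent array of short DNA probes. With 1 pool per genotype there was no spread between animals to test against, and no p-value is given. No Cre-only hearts were compared, so the effect of Cre and that of *Bmal1* loss cannot be told apart.

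Nearly all mitochondrial proteins are encoded in the nucleus, made in the cytosol and imported. Precursors cross the outer membrane through the TOM complex, and are then passed to the SAM complex for outer membrane barrels, to small TIM chaperones and TIM22 for inner membrane carriers, or to TIM23 and its ATP-driven motor for the matrix, where targeting sequences are cut off and the HSP60 and HSP10 chamber folds the product. Proteases of the matrix and inner membrane remove subunits that do not fold or assemble, which matters in heart muscle because so much of the cell is mitochondria, and when this system is overloaded cells can raise its nuclear genes in what is called the mitochondrial unfolded protein response.

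Values are given on 2 scales. A level is the log2 processed signal of a gene on an array, relative to that array's 75th percentile, and levels of different genes cannot be compared because probes differ in brightness. A log2 ratio is the level in the *H-Bmal1*-/- pool minus that in the control pool, averaged over those of its probes that stood well above background in 1 or both pools. Under its official symbol *Arntl*, the targeted gene *Bmal1* had a level of 0.79 in the *H-Bmal1*-/- pool and 1.58 in the control pool, which was 1.74-fold lower, and its target *Nr1d1* was 4.26-fold lower. The position of the single *Arntl* probe relative to the floxed exon was not known, so it may not check the deletion. On the arrays, 29672 of 59305 noncontrol spots were well above background in the *H-Bmal1*-/- pool and 29288 in the control pool, and no spot was saturated. A gauge of noise within an array came from 247 probes printed at least 8 times, whose log2 ratio had a median SD of 0.07 between spots. It covers printing and hybridization only.

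One stretch of DNA is shown first because it lies between annotated starts of the genes of both subunits of the folding chamber. Both genes had a log2 ratio below 0, though the 3 probes of *Hspe1* differed (-0.30, -0.23 and 0.01). *Hspd1* (HSP60) and *Hspe1* (HSP10) lie head to head on mouse chromosome 1. The 215 bases between the *Hspe1* start and an annotated *Hspd1* start, chr1:55087933-55088147 on the plus strand of GRCm38.p6 (RefSeq), read toward *Hspe1*. Capitals mark a GAANNTTC unit of the heat shock element at bases 132 to 139. They also mark the ETS motif CCGGAAG on both strands at bases 136 to 142 and 139 to 145, which overlaps that unit. The nuclear receptor site AAGGTCA at bases 168 to 174 is in capitals too. In the same spacing, TTC lies just before the GAANNTTC unit and GAA just after it. The alternation of GAA and TTC is therefore longer than the labeled unit, and only GAANNTTC was searched.
Hspd1 and Hspe1 shared stretch: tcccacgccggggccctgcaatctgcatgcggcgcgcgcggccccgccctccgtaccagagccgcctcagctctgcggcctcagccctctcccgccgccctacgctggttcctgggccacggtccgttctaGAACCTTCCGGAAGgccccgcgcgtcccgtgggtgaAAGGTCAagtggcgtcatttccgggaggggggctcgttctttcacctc

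Across the 52 genes, the *H-Bmal1*-/- and control pools were close. The median log2 ratio was 0.02, with 25 genes below 0 and 27 above, beside a median of -0.02 over the 13051 genes well above background on both arrays, of which 52.2% were below 0 and 47.8% above. Of the 52 genes, 1 was at least 1.5-fold lower in the *H-Bmal1*-/- pool (4.51% of all genes were) and 0 were at least 1.5-fold higher (5.10% of all genes were), where 9.61% of all genes passed in either direction. At a smaller line, a log2 ratio of 0.32 in either direction, 3 were lower (*Immp2l*, *Tomm40l* and *Hspd1*; 13.6% of all genes) and 1 was higher (*Tomm7*; 12.8% of all genes). The remaining 48 genes, 92.3% of the set, lay within that smaller line, against 73.7% of all genes. Genes near the line crossed it with the processing. *Tomm7* passed it only through a probe that was well above background in the *H-Bmal1*-/- pool alone, and with probes well above background on both arrays 0 genes were higher and 49 lay within it. *Hspd1* was not past it under 6 of the 11 other processings, and *Timm10*, just inside it here, was past it under 7. Over all 12 processings 1 to 3 genes were lower and 0 to 8 higher at this line, the 8 without scaling.

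Bright probes had smaller ratios on these arrays, and 50 of the 52 genes were above the 75th percentile in signal. Over those 50 genes 92.0% lay within the smaller line, against 80.1% of the 7674 genes above the 75th percentile. The median size of the log2 ratio was 0.13, against 0.15. Brightness was still not matched. The 50 genes had median levels of 3.93 in the *H-Bmal1*-/- pool and 4.08 in the control pool, against 2.19 and 2.19 for the 7674. The part of brightness in the remaining gap was not tested. Of the 52 genes, 33 had ratios no farther from 0 than 0.15, which is 2 times the SD between spots. Of the other 19, 10 were below 0 and 9 above. All 52 were well above background on both arrays, and only 1 of their 75 probes was not, a second probe of *Tomm7* that was dim in the control pool.

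**Figure D1:**
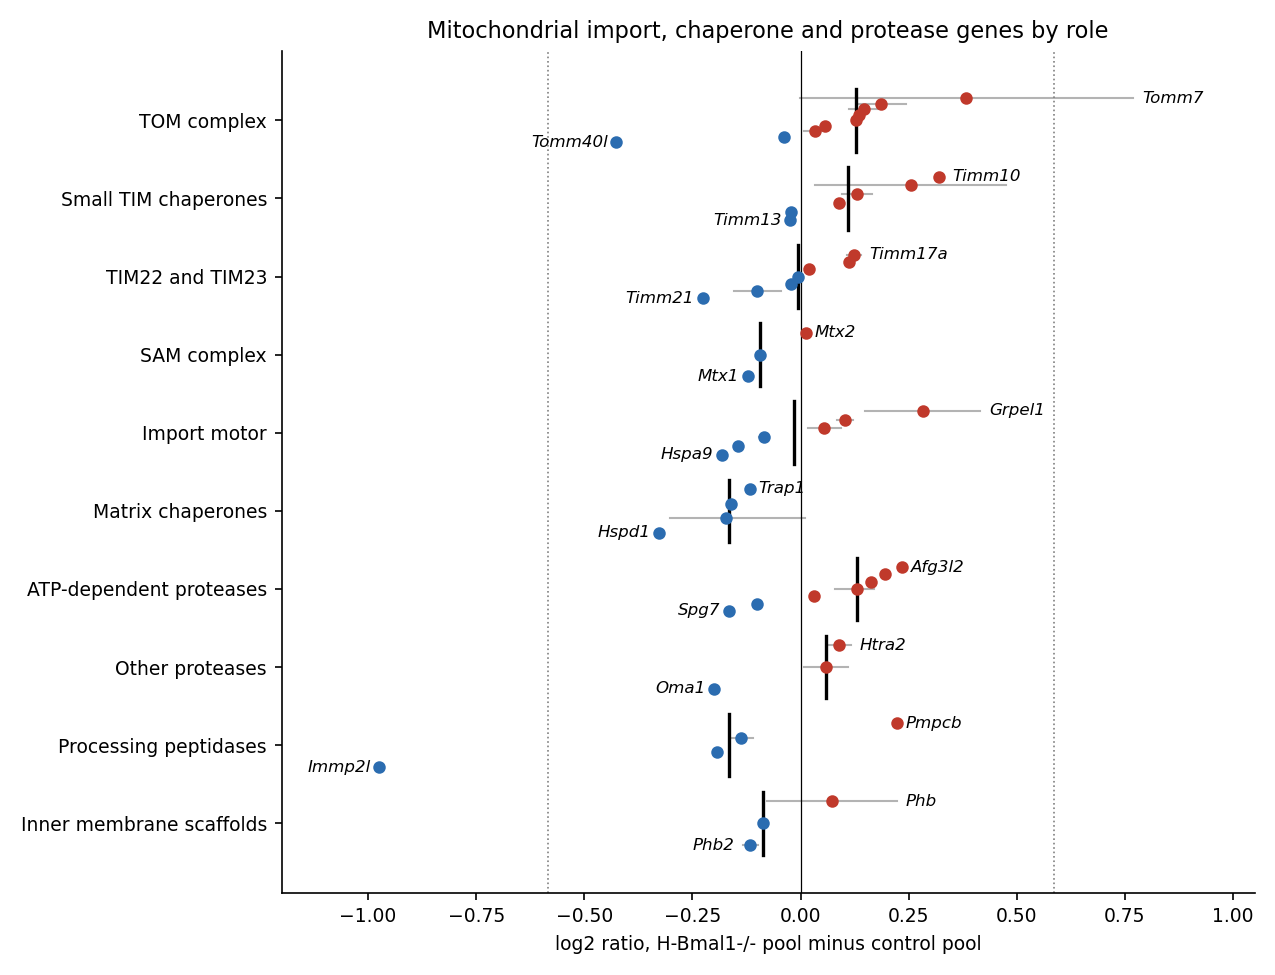
Log2 ratio, *H-Bmal1*-/- pool minus control pool, of each of the 52 genes (points, red above 0 and blue below 0), by role. Gray lines span the probes of a gene, black bars are the medians of a role, dotted lines mark 1.5-fold and the lowest and highest gene of each role is named. *Immp2l* alone lies beyond 1.5-fold. The 4 matrix chaperones all lie left of 0, as do 52.2% of all genes, and *Trap1* turns to 0.03 without scaling between arrays.

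At the entrance, the 9 genes listed for the outer membrane translocase showed a median log2 ratio of 0.13. Of these, 7 of 9 were above 0 (47.8% of all genes were). With probes well above background on both arrays *Tomm7* was at -0.00, the median was 0.06 and 6 of 9 were above 0, and with the brightest probe of each gene the median was also 0.06. *Tomm20*, the receptor for precursors with a presequence, had a level of 3.48 in the *H-Bmal1*-/- pool and 3.29 in the control pool, a log2 ratio of 0.19 (1.14-fold higher). *Tomm22*, the central receptor, had levels of 4.95 and 4.82 in the *H-Bmal1*-/- and control pools, and *Tomm5*, a small subunit that in yeast passes precursors to the pore, had 6.76 and 6.61. These 3 were above 0 under every processing tried, by less than the smaller line of 0.32 except for *Tomm20* without scaling (0.34). *Tomm40*, which forms the pore itself, was almost level between pools, at 3.25 in the *H-Bmal1*-/- pool and 3.22 in the control pool (log2 ratio 0.03), as were *Tomm6*, which in yeast helps to hold the complex together, at 5.21 and 5.15, and *Tomm70a*, the receptor for carrier proteins that works with cytosolic chaperones, at 2.12 and 2.16. *Tomm34*, a cytosolic cochaperone that binds precursors, was at 2.71 in the *H-Bmal1*-/- pool and 2.58 in the control pool. It is counted in the 9 though its product is cytosolic.

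A pair of TOM genes stood away from the rest in opposite directions. *Tomm40l*, a second gene for a pore-type subunit, was at 1.98 in the *H-Bmal1*-/- pool and 2.41 in the control pool, a log2 ratio of -0.43 (1.34-fold lower), measured by 1 probe and ranging from -0.43 to -0.27 over the processings tried, with -0.27 short of the smaller line. *Tomm7*, a small subunit that in yeast modulates complex assembly, had a mean log2 ratio of 0.38 (1.30-fold higher), from a level of 1.89 in the *H-Bmal1*-/- pool and 1.51 in the control pool, but its probes gave different answers. The bright probe had processed signals of 20872 in the *H-Bmal1*-/- pool and 18823 in the control pool and a log2 ratio of -0.00, while the dim one had signals of 23.9 and 12.6 and a log2 ratio of 0.77. The higher value of *Tomm7* thus rests on the dim probe, which was well above background in the *H-Bmal1*-/- pool only.

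Behind the TOM complex, the genes of the small TIM chaperones, which escort hydrophobic precursors through the intermembrane space, showed a median log2 ratio of 0.11 (0.06 with the brightest probe of each gene). Of these, 4 of 6 were above 0 (47.8% of all genes were). *Timm10*, which pairs with TIMM9 in the main chaperone ring, was at 5.94 in the *H-Bmal1*-/- pool and 5.62 in the control pool, a log2 ratio of 0.32 that falls just short of the smaller line here and ranged from 0.31 to 0.47 over the processings. Its partner *Timm9* was at 2.14 in the *H-Bmal1*-/- pool and 2.16 in the control pool, so the genes of the ring had different ratios. *Timm8a1*, whose human counterpart is mutated in deafness-dystonia syndrome, was at 2.42 and 2.16 in the *H-Bmal1*-/- and control pools (log2 ratio 0.26), with 0.03 at its brighter probe and 0.48 at its dimmer one. *Timm8b*, a relative of *Timm8a1*, and *Timm13*, their partner in the second ring, had log2 ratios of 0.09 and -0.02, and *Timm10b*, a subunit at the TIM22 complex, had 0.13.

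The genes of the inner membrane translocases lay around 0. The median log2 ratio of the TIM22 and TIM23 genes was -0.01, with 4 of 7 below 0, and the sign of that median turned under 5 of the 11 other processings (from 0.00 with the deposited value table to 0.14 without scaling). *Timm23*, the presequence channel, was at 5.43 in the *H-Bmal1*-/- pool and 5.53 in the control pool, and *Timm22*, the carrier insertase, was at 3.75 and 3.63. *Timm17a* and *Timm17b*, alternative channel partners of TIMM23, had log2 ratios of 0.12 and 0.02. *Timm50*, the receptor that takes over from TOM, and *Timm44*, which tethers the motor to the channel, had log2 ratios of -0.02 and -0.01. *Timm21*, which links TIM23 to TOM and to respiratory chain assembly, was the lowest, at 2.11 in the *H-Bmal1*-/- pool and 2.34 in the control pool (log2 ratio -0.23, 1.17-fold lower).

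For barrel insertion in the outer membrane, *Samm50*, the core of the SAM complex, was at 5.34 in the *H-Bmal1*-/- pool and 5.43 in the control pool. The metaxin genes *Mtx1* and *Mtx2*, which encode its partners, had log2 ratios of -0.12 and 0.01. The median of these 3 was -0.09, and 0.06 without scaling, where the median of all genes was 0.13.

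**Figure D2:**
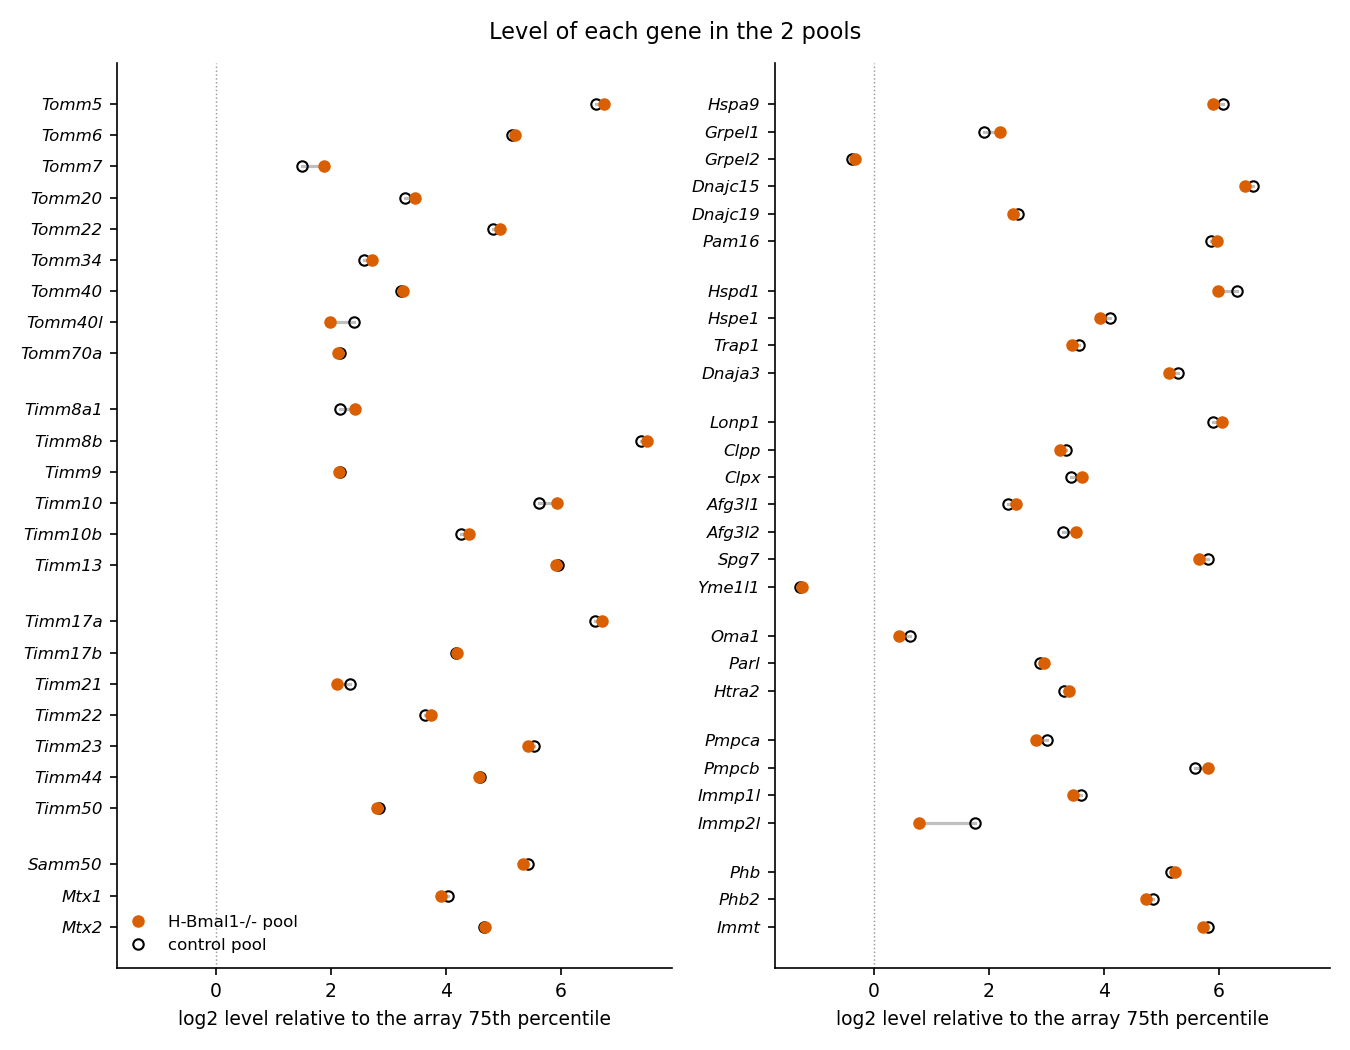
Level of each of the 52 genes (log2, relative to the array's 75th percentile, dotted line) in the *H-Bmal1*-/- pool (filled orange) and the control pool (open black), grouped by role down each panel. Points of a gene nearly coincide for most genes, and *Immp2l* has the longest gap, 0.79 against 1.76; heights of different genes reflect different probes and cannot be compared.

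The genes of the import motor, which pulls presequence proteins into the matrix, were split 3 below and 3 above 0, with a median log2 ratio of -0.01 (0.14 without scaling, and 0.02 with cyclic loess or spike-in scaling). *Hspa9*, the mitochondrial HSP70 at the heart of the motor, was at 5.90 in the *H-Bmal1*-/- pool and 6.08 in the control pool, a log2 ratio of -0.18 (1.13-fold lower). *Grpel1*, its nucleotide exchange factor, went the other way, at 2.20 in the *H-Bmal1*-/- pool and 1.92 in the control pool (log2 ratio 0.28, 1.22-fold higher). That mean joins a bright probe printed 10 times, with a log2 ratio of 0.15 ± 0.03 (SD between spots, from 0.11 to 0.20), and a dim probe with a log2 ratio of 0.42 and signals of 55.8 in the *H-Bmal1*-/- pool and 37.6 in the control pool. The bright probe was therefore above 0 at each of its 10 spots, by a smaller amount than the gene mean. *Dnajc15* and *Dnajc19*, J proteins that stimulate the HSP70, had log2 ratios of -0.15 and -0.08, while *Pam16*, which holds the J protein in check, had 0.10 and *Grpel2*, a second exchange factor, 0.06.

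In the matrix, all 4 genes of the folding chaperones were lower in the *H-Bmal1*-/- pool, where 52.2% of all genes were below 0. Their median log2 ratio was -0.17, and 3 of the 4 lay within the smaller line. Without scaling the median was -0.01 and *Trap1* was above 0. Roles were set with earlier results of these data known, so the shared sign is a description only. *Hspd1*, which encodes the chamber HSP60, had processed signals of 12043 in the *H-Bmal1*-/- pool and 13602 in the control pool, and levels of 5.99 and 6.31. Its log2 ratio of -0.33 came from 1 probe, falls just past the smaller line here and ranged from -0.33 to -0.18 over the processings, 6 of which put it inside that line. *Hspe1*, which encodes the lid HSP10 and shares the stretch printed above, was at 3.94 in the *H-Bmal1*-/- pool and 4.11 in the control pool. Its log2 ratio was -0.17, and -0.02 without scaling. The 3 probes of *Hspe1* gave -0.30, -0.23 and 0.01. The -0.30 came from the dimmest, with signals of 313 in the *H-Bmal1*-/- pool and 347 in the control pool. *Trap1*, the mitochondrial HSP90, was at 3.45 and 3.57 in the *H-Bmal1*-/- and control pools, and *Dnaja3*, a J protein that assists matrix folding, at 5.13 and 5.29. None of the 4 reached 1.5-fold.

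For quality control, the genes of the ATP-dependent proteases showed a median log2 ratio of 0.13 (0.08 with the brightest probe of each gene). Of these, 5 of 7 were above 0 (47.8% of all genes were), and all lay within the smaller line except *Afg3l2* and *Clpx* without scaling (0.39 and 0.35). *Lonp1*, the main matrix protease, was at 6.06 in the *H-Bmal1*-/- pool and 5.90 in the control pool (log2 ratio 0.16). *Clpx*, the unfoldase of the second matrix protease, was at 3.62 and 3.43 in the *H-Bmal1*-/- and control pools (log2 ratio 0.19), whereas *Clpp*, the proteolytic barrel it feeds, was at 3.24 and 3.34 (log2 ratio -0.10, and 0.05 without scaling). Subunits of the inner membrane m-AAA protease also differed in direction. *Afg3l2* was at 3.52 in the *H-Bmal1*-/- pool and 3.29 in the control pool (log2 ratio 0.23), *Afg3l1* had a log2 ratio of 0.13, and *Spg7*, which encodes the partner paraplegin, was at 5.65 in the *H-Bmal1*-/- pool and 5.82 in the control pool (log2 ratio -0.17). *Yme1l1*, the i-AAA protease facing the intermembrane space, had a log2 ratio of 0.03, at a level of -1.24 in the *H-Bmal1*-/- pool and -1.27 in the control pool.

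Proteases that work without ATP were close to 0, with a median log2 ratio of 0.06 over 3 genes (0.01 with the brightest probe of each gene). *Oma1*, the stress-activated protease that cleaves OPA1, was at 0.44 in the *H-Bmal1*-/- pool and 0.64 in the control pool (log2 ratio -0.20). *Parl*, the rhomboid protease that cleaves PINK1, and *Htra2*, a serine protease of the intermembrane space, had log2 ratios of 0.06 and 0.09.

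The single gene beyond 1.5-fold was among the presequence peptidases. *Immp2l*, a catalytic subunit of the inner membrane peptidase that cuts sorting signals off intermembrane space proteins, had processed signals of 328 in the *H-Bmal1*-/- pool and 580 in the control pool. Its levels were 0.79 in the *H-Bmal1*-/- pool and 1.76 in the control pool, a log2 ratio of -0.97 (1.96-fold lower), and 186 of the 13051 genes had a ratio as low or lower. It ranged from -0.98 to -0.82 over the processings tried and was past 1.5-fold in each, though it rests on 1 probe. Its companion *Immp1l*, the other catalytic subunit, was at 3.46 in the *H-Bmal1*-/- pool and 3.60 in the control pool (log2 ratio -0.14).

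The matrix processing peptidase, which removes presequences as they emerge from TIM23, had its subunit genes on opposite sides. *Pmpca*, the substrate-binding subunit, was at 2.82 in the *H-Bmal1*-/- pool and 3.01 in the control pool (log2 ratio -0.19), and *Pmpcb*, the catalytic subunit, was at 5.81 and 5.59 (log2 ratio 0.22). Both signs held under every processing tried. Of the inner membrane scaffolds, *Phb* and *Phb2*, which together form the prohibitin ring around the m-AAA protease, had log2 ratios of 0.07 and -0.12, and *Immt*, the core of the complex that shapes cristae junctions, had -0.09. The probes of *Phb* were at -0.08 and 0.22.

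Probes of the same gene mostly gave like values. Of the 52 genes, 21 had more than 1 probe and 31 had 1. The median range between probes of a gene was 0.07 on the log2 scale, against 0.16 over 3523 genes with several probes. Probes lay on both sides of 0 for 3 of 21 genes (*Tomm7*, *Hspe1* and *Phb*), against 31.2% of those 3523. The largest range was 0.77 (*Tomm7*). These comparisons were not matched for brightness, and 50 of the 52 genes were above the 75th percentile in signal. The part of brightness in them was not tested.

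BMAL1 binds the E-box CACGTG with CLOCK, so promoters were searched for it. RefSeq windows of 250 bases before to 50 after a start site (GRCm38.p6) were at hand for 45 of the 52 genes, and motifs were read on both strands. The E-box was in the windows of 7 of these 45 genes (15.6%), against 11.3% of 11016 measured genes and 8.09% of 27025 genes with a window. Log2 ratios of the 7 genes were above 0 for 5, where 47.8% of all genes were above 0. The 5 were *Timm10*, *Timm8a1*, *Tomm20*, *Lonp1* and *Phb*, from 0.07 to 0.32. The ratios of *Hspd1* and *Timm9* were below 0 (-0.33 and -0.02). A match is letters only, and binding was not measured. Their 9 sites are shown with 12 bases on each side, read 5′ to 3′ on the gene's strand, with the E-box in capitals.
Hspd1 chr1:55088306-55088335 (-): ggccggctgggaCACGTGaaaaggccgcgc
Lonp1 chr17:56626922-56626951 (-): cgcgagcgtcatCACGTGcgcaaacggggg
Phb chr11:95666713-95666742 (+): ttgaggaataggCACGTGcatatattacca
Timm10 chr2:84827037-84827066 (+): ccggaagtgaccCACGTGcttcttatttcg
Timm8a1 chrX:134541629-134541658 (-): ccgtcacccagaCACGTGaaggtcggcaag
Timm8a1 chrX:134541889-134541918 (-): ccttcagtggacCACGTGggatgaagcaac
Timm9 chr12:71136659-71136688 (-): catcactgccccCACGTGttctcagctttc
Timm9 chr12:71136716-71136745 (-): cctacattttccCACGTGgtaacgaatctg
Tomm20 chr8:126946030-126946059 (-): gcacgccacaaaCACGTGctgcccctgacc
Counted from the start site, they begin between position -236 (*Timm8a1*, second site) and position 29 (*Timm10*). The site of *Hspd1* lies by another annotated start of that gene, outside the stretch it shares with *Hspe1*. That start and its E-box lie past the *Hspe1* start, so *Hspd1* read from there runs through the stretch.

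Other motifs were spread over genes that were lower and genes that were higher. The ETS motif CCGGAAG was found for 20 of the 45 genes (44.4%), against 18.0% of measured genes. These 20 genes were split 10 below and 10 above 0, where 52.2% of all genes were below 0. The nuclear receptor site AAGGTCA was found for 6 (13.3%, against 4.25% of measured genes). Of these, 5 were below 0 (52.2% of all genes were), namely *Hspd1*, *Hspe1*, *Timm44*, *Timm23* and *Trap1*, and 1 above, *Timm8b*. *Hspd1* and *Hspe1* hold the same site, in the stretch printed above, so it is counted for both. The 6 ratios were mostly small, and those of *Timm44*, *Timm23* and *Trap1* changed sign without scaling. The unit GAANNTTC was found for 4 (8.89%, against 7.16%), *Hspd1*, *Hspe1*, *Timm9* and *Parl*. The arrangement with TTC first was not searched, so these shares cover GAANNTTC only. The NRF1 motif GCATGCGC was in 3 (6.67%, against 5.41%), *Grpel1*, *Clpx* and *Timm13*, and TTGCATCA, a site for CHOP, was in 0, with 0.835% of measured genes holding it.

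Chaperone genes of other compartments were set beside the mitochondrial ones. Of 31 cytosolic heat shock protein genes, 26 were above 0 (47.8% of all genes were), with a median log2 ratio of 0.19, and 5 were at least 1.5-fold higher in the *H-Bmal1*-/- pool (5.10% of all genes were). The highest were *Hspa1a*, the inducible HSP70, and *Hsp90aa1*, the inducible HSP90. *Hsp90aa1* was at 5.81 in the *H-Bmal1*-/- pool and 4.71 in the control pool (2.14-fold higher). *Hspa1a* had a log2 ratio of 1.42 from 1 dim probe, at -0.895 in the *H-Bmal1*-/- pool and -2.32 in the control pool. *Hspa8* and *Hspa2*, also HSP70 genes, had log2 ratios of 0.11 and -0.06, and *Hsp90ab1*, also an HSP90 gene, had 0.07. Of 18 endoplasmic reticulum chaperone genes, 15 were below 0 (52.2% of all genes were), with a median of -0.20. *Herpud1*, which takes part in degradation from that compartment, was the lowest at -0.67, and *P4hb*, a disulfide isomerase, the highest at 0.36. Of their mitochondrial counterparts, the HSP70 gene *Hspa9* had a log2 ratio of -0.18 and the HSP90 gene *Trap1* -0.12 (0.03 without scaling). No test of a difference between the lists was possible.

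**Figure D3:**
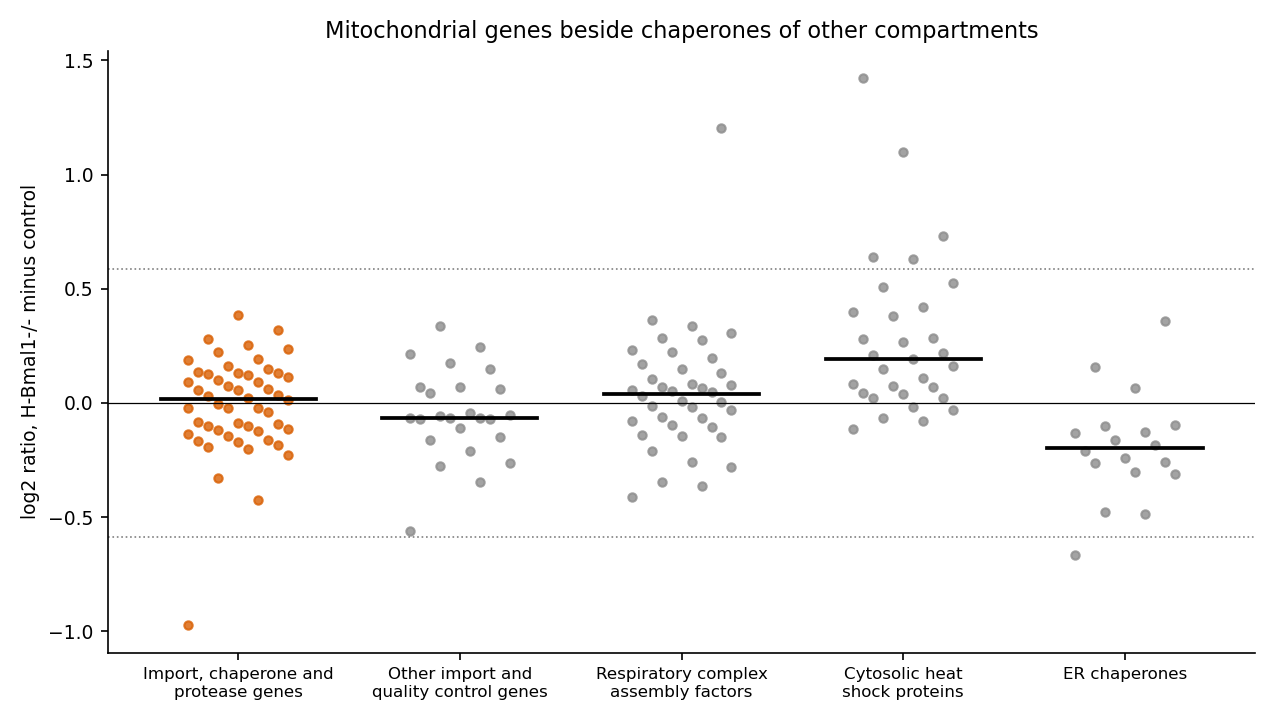
Log2 ratio, *H-Bmal1*-/- pool minus control pool, of each gene (points) of the 52 import, chaperone and protease genes (orange) and of 4 other lists (gray). Black bars are medians (0.02, -0.07, 0.04, 0.19 and -0.20 from left to right) and dotted lines mark 1.5-fold; the median of the other import and quality control genes is 0.09 without scaling and 0.01 under normexp, and the signs of the medians of the cytosolic and endoplasmic reticulum lists held in all processings.

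Mitochondrial genes of related function outside the set were also read. Of 25 other import and quality control genes, 0 were at least 1.5-fold lower or higher, where 9.61% of all genes were, a share too small to read a 0 in a list of this size as a result. The median log2 ratio was -0.07 (0.09 without scaling and 0.01 under normexp background correction). *Pink1*, the kinase that builds up at the TOM complex when import fails, was the lowest, at 6.16 in the *H-Bmal1*-/- pool and 6.72 in the control pool (log2 ratio -0.56, 1.47-fold lower). *Chchd4*, which drives oxidative import into the intermembrane space, was the highest at 0.34. Respiratory complex assembly factors (40 genes) had a median of 0.04, with *Cox19*, a factor of cytochrome c oxidase assembly, at 1.20 and *Cox10*, which takes part in making its heme, at -0.41. Genes that regulate or report mitochondrial stress included *Gdf15*, a secreted stress cytokine, at 2.59 in the *H-Bmal1*-/- pool and -0.76 in the control pool (10.2-fold higher), and *Atf5*, a factor linked to the mitochondrial unfolded protein response, at 6.17 and 5.66 (1.42-fold higher). *Ddit3*, which encodes CHOP, had a log2 ratio of -0.18, *Ubl5*, the lowest of the list, -0.20 and *Hsf1* -0.17. Of the 8 measured genes of that list, 5 were above 0 (47.8% of all genes were) and 3 below. The median of the 8 was 0.16, or 0.05 without *Fgf21*, which was well above background in the *H-Bmal1*-/- pool only.

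A ventricle holds several cell types, and in bulk RNA fewer cells of a type and less RNA per cell cannot be told apart. Cardiomyocyte markers, 9 of 10 below 0 (52.2% of all genes were), had a median log2 ratio of -0.26. The markers differed, from -0.67 for *Atp2a2* to -0.08 for *Tnnt2* and 0.34 for *Mybpc3*. The summed linear level of the 10 was 7002 times the array's 75th percentile in the *H-Bmal1*-/- pool and 7683 times in the control pool. Fibroblast markers were all 10 above 0 (47.8% of all genes were), with a median of 0.67. Their sums were 480 in the *H-Bmal1*-/- pool and 314 in the control pool. Endothelial markers (10 genes) had sums of 218 and 223 in the *H-Bmal1*-/- and control pools, smooth muscle and pericyte markers (8 genes) 83.7 and 87.2, and macrophage and leukocyte markers (9 of 10 measured) 22.3 and 21.2. All measured markers were well above background on both arrays. Summed in the same way, the 52 genes came to 1559 in the *H-Bmal1*-/- pool and 1547 in the control pool. The part of these marker differences in the ratios of the 52 genes was not tested.

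**Figure D4:**
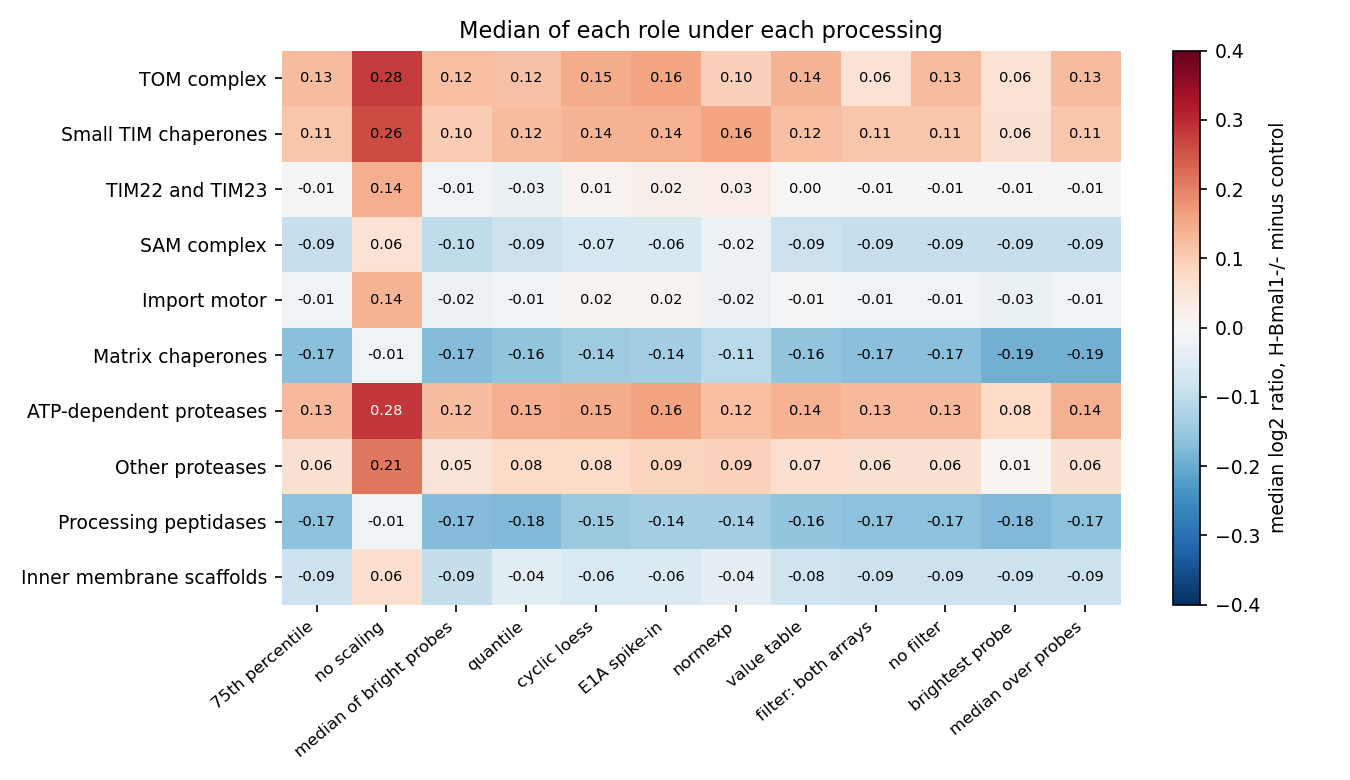
Median log2 ratio, *H-Bmal1*-/- pool minus control pool, of each role (down the page) under each processing (across), with red above 0 and blue below 0. Leaving out scaling adds 0.15 to every ratio, and the TOM median is 0.06 with the filter for both arrays or the brightest probe, against 0.13 in the first column; the medians of the SAM complex and the inner membrane scaffolds turn positive only without scaling, and those of TIM22 and TIM23 and the import motor change sign in further columns.

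Over the 12 processings, the main one included, 23 of the 52 genes stayed above 0 throughout and 10 stayed below 0, and 19 were on both sides. The run without scaling, which added 0.15 to every ratio, is among the 12. It left 10 genes below 0, beside 21 to 26 under the other processings. That run therefore sets the lower count, and the split does not show more genes higher than lower. The 10 were *Immp2l*, *Tomm40l*, *Hspd1*, *Timm21*, *Oma1*, *Pmpca*, *Hspa9*, *Hspe1*, *Spg7* and *Dnaja3*. Among the 23 were *Timm10* (from 0.31 to 0.47), *Afg3l2* (from 0.22 to 0.39), *Pmpcb* (from 0.22 to 0.37) and *Tomm20* (from 0.17 to 0.34), and *Tomm7* was not one of them.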

How the data were processed

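Left ventricular RNA, pooled from 6 animals per genotype, was labeled with Cy3 and hybridized to Agilent SurePrint G3 Mouse 8x60K arrays, 1 per pool. The deposited intensities are processed signals that the authors obtained with Agilent Feature Extraction, background-corrected and on a linear scale. The processing notes give version 10.5.1.1 and the scanner output 10.10.1.1. The authors' deposited value table held the same signal intensities times 1 factor per array (log2 2.31 for the *H-Bmal1*-/- and 2.45 for the control array, medians 64.0 and 67.2), linear and without centering of genes. How the factor was set is not known here, and this table was run as an alternative.

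Processed signals were converted to log2 and set against the array's 75th percentile over noncontrol spots (signals of 190 in the *H-Bmal1*-/- and 171 in the control array). Control spots and 269 spots called outliers by the scanner software were removed. Spots were averaged per probe, and probes that passed the background filter in 1 or both pools were averaged per gene. Of 55681 probes, 26762 were named through their accession with RefSeq genes of GRCm38.p6. Listed genes that were not measured and so enter no count include *Timm8a2*, *Tomm20l* and *Cox17*. Shares of all genes were taken over the 13051 genes well above background on both arrays. Each array holds 1 pool, so no test was made. Precision is limited by the number of arrays, and pooling leaves no measure of the spread between animals.

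Members, roles, compared lists and motifs were chosen with earlier results of these data known. Levels on both arrays, a log2 ratio or both are given for members past 1.5-fold and for the extremes of each role (up to 2 at either end), with others added. The extremes of each compared list were eligible to be named. The alternatives were no scaling, scaling to the median of bright probes or to 7 E1A spike-in probes, quantile normalization, cyclic loess, normexp with an offset of 50 on median signal and local background, the value table, 2 filters on dim probes, the brightest probe, the median over probes and other thresholds. The steps were tested on simulated data. Normalization used limma 3.58.1 in R 4.3.3, and other steps used Python 3.11.15 with pandas 2.3.3, numpy 2.4.6 and matplotlib 3.10.9.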

Additional observations from a re-analysis of the deposited data

How the results depend on the processing

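No paired analysis was possible because each genotype has 1 array, so the groups share only 1 replicate number, and for the same reason no array could be left out. Leaving out scaling between the arrays added 0.15 to every ratio and put the median of all genes at 0.13. The median of the 52 genes was then 0.17, with 10 below 0, beside 0.00 to 0.05 and 21 to 26 below 0 under the other processings. Without scaling the medians by role were 0.28 for TOM, 0.26 for the small TIMs, 0.14 for TIM22 and TIM23, 0.058 for SAM, 0.14 for the motor, -0.015 for the matrix chaperones, 0.28 for the ATP-dependent proteases, 0.21 for the other proteases, -0.014 for the processing peptidases and 0.064 for the scaffolds. Those of the compared lists were 0.085 for other import and quality control genes, 0.34 for cytosolic heat shock proteins, -0.046 for endoplasmic reticulum chaperones, 0.19 for assembly factors and 0.31 for stress regulators. Those of the markers were -0.11 for cardiomyocytes, 0.086 for endothelial cells, 0.82 for fibroblasts, -0.013 for smooth muscle and 0.21 for macrophages.

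Under normexp the median was -0.12 for the endoplasmic reticulum chaperones and -0.088 for smooth muscle markers. The stress regulators had 0.049 with only probes well above background on both arrays, a filter that leaves out *Fgf21*. They also had 0.049 with no filter. Cardiomyocyte markers had -0.16 under quantile normalization and -0.17 with the brightest probe of each gene. The cause of the other changes was not tested. At a log2 ratio of 0.32, 3 members were lower and 1 higher, and at 2-fold 0 were lower. The 1 higher member, *Tomm7*, was at -0.00 with the filter for both arrays, which left 0 higher, and with the brightest probe, where *Timm10* was past that line instead. With the brightest probe the medians were 0.06 for TOM and the small TIMs, 0.08 for the ATP-dependent proteases and 0.01 for the other proteases, and with the filter for both arrays that of TOM was 0.06. *Immp2l* was past 1.5-fold and no member was 1.5-fold higher under each of the 11 other processings. Of 37 members named with values by rule, 10 moved by more than the SD between spots under normexp, 4 with the brightest probe and 1 with the filter for both arrays. Precision is limited for dim probes, such as those of *Tomm7* and *Grpel1*, and for the 31 members with a single probe.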
